A study of Mus musculus with 9 samples.

Results

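Of 43346 genes in the count table, 10 that mark the lining of the liver sinusoids were followed through regeneration of the mouse liver, namely Stab1, Stab2, Lyve1, Clec4g, Fcgr2b, Kdr, Flt1, Flt4, Pecam1 and Tek. They were taken by symbol, and each matched 1 gene with enough reads to be tested. RNA-Seq was performed on whole liver of male mice (strain C57/BL6 in the labels), 12 weeks old, that underwent 70% partial hepatectomy. The 9 libraries formed 3 groups of 3. The vehicle 0 h group was the lobes resected from vehicle-treated mice at surgery and served as the baseline, and the vehicle 40 h group was the liver remnant of vehicle-treated mice 40 hours after hepatectomy. The NSC 40 h group was the remnant of mice given NSC-87877 (NSC), a small-molecule inhibitor of the tyrosine phosphatases SHP1 and SHP2, at 7.5 mg/kg every 12 h, or 15 mg/kg per day, by intraperitoneal injection from before surgery on. One set of vehicle baseline livers served both 40 h groups, and no resected lobes from mice on NSC were analysed here.

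Liver sinusoids are lined by a fenestrated endothelium without a basement membrane that clears hyaluronan, immune complexes and modified proteins from the portal blood. Its cells also exchange signals with hepatocytes: hepatocytes release VEGF ligands that act on endothelial VEGF receptors, and the endothelium releases Wnt ligands, R-spondin and bone morphogenetic proteins. Hepatocytes divide early after hepatectomy and endothelial cells follow.

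In whole liver, fewer cells of a type and less RNA per cell cannot be told apart. Libraries held 23997363 to 42887589 counted reads, and the 10 markers held 123 to 2496 reads each per library. Over the 15024 genes tested, 23.7% differed between the vehicle 40 h and vehicle 0 h groups at an edgeR adjusted p under 0.05 (11.0% lower), 34.7% between NSC 40 h and vehicle 0 h (16.5% lower) and 0.0399% between the 2 groups at 40 h. The labels did not say which 0 h and 40 h samples came from the same mouse. Each p-value set a difference between groups against the spread between the sampled livers within groups.

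The markers that passed this threshold in a comparison were Kdr and Fcgr2b in the vehicle group and Stab1 in the NSC group. Their promoters are shown as the stretch of sequence at which each gene starts. RefSeq windows on GRCm38.p6 (250 bases before to 50 bases after the start of transcription) were at hand for 8 of the 10 markers, without Lyve1 and Pecam1. Kdr (ENSMUSG00000062960) lies on chromosome 5 from 75932827 to 75978458, Fcgr2b (ENSMUSG00000026656) on chromosome 1 from 170958617 to 170976547, and Stab1 (ENSMUSG00000042286) on chromosome 14 from 31139013 to 31168641. The windows are chr5:75978406-75978705, chr1:170976022-170976321 and chr14:31168592-31168891, each on the minus strand and printed 5′ to 3′. The RefSeq start of Fcgr2b lies 476 bases inside the start of the gene in the count table. Capitals mark the GC box GGGCGG, to which SP1 binds, or AGGAAG, a form of the site of ETS factors, on either strand.
Kdr: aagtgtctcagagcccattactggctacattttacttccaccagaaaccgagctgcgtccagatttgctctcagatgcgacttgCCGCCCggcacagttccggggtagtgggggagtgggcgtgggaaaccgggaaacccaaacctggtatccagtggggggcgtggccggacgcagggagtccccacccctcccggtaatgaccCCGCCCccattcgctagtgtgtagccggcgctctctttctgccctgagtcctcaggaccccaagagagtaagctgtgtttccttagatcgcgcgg
Fcgr2b: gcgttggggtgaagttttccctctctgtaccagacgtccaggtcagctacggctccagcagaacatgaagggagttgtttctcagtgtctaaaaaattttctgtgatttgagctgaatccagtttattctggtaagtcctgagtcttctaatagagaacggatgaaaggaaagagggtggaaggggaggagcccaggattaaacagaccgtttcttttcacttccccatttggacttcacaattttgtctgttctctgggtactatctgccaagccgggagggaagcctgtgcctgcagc
Stab1: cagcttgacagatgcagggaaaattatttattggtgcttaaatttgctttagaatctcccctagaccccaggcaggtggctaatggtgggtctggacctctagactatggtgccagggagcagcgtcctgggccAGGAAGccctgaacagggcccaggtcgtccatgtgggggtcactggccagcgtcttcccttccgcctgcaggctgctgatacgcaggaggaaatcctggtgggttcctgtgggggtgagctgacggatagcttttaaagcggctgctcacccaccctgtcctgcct
The Kdr window held 2 GC boxes and no AGGAAG, the Stab1 window held 1 AGGAAG and no GC box, and the Fcgr2b window held neither. Among the 8 windows, the GC box was found in those of the 3 VEGF receptors alone, with 2 in Kdr, 3 in Flt1 and 3 in Flt4, and it was found in 35.7% of all 32851 RefSeq windows. AGGAAG was found in 4 of the 8, in Stab1, Stab2, Clec4g and Flt1, and in 35.4% of all windows. G and C made up 60.7% of the Kdr window, 48.0% of the Fcgr2b window and 57.3% of the Stab1 window, against a median of 52.7% over all windows. No match of one motif overlapped a match of the other, and a match of letters describes the window only.

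The levels of the 10 markers were ordered first, in FPKM, the read count scaled by gene length and library size. At baseline Clec4g, a C-type lectin of sinusoidal endothelium, stood far above the others at 21.3 ± 0.180 FPKM (SD, n = 3). Fcgr2b, the inhibitory Fc receptor that takes up immune complexes, followed at 6.41 ± 0.631 FPKM. Stab2, Kdr and Stab1 came next at 5.19, 5.08 and 4.93 FPKM, and their 3 values each overlapped. Flt4 (2.43 FPKM), Pecam1 (2.36 FPKM) and Lyve1 (2.26 FPKM) also overlapped one another, and Lyve1 overlapped Tek (1.67 FPKM). Flt1 was lowest at 0.842 ± 0.0244 FPKM, below every value of the other 9 markers.

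Clec4g, Fcgr2b and Stab2 kept the first 3 places and Flt1 the last place in all 3 groups by mean FPKM. Stab1 moved from the fifth place at baseline to the fourth in the vehicle 40 h group and the eighth in the NSC group, where its mean was 2.55 ± 1.08 FPKM. Kdr held the fourth place at baseline, the fifth in the vehicle group and the fourth again in the NSC group. Tek went from the ninth place at baseline to the eighth and the seventh, below Pecam1 without overlap in the vehicle group and overlapping it in the NSC group. All further values of single genes are in CPM, the read count scaled by TMM library size, or in log2 differences of CPM between groups.

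**Figure D1:**
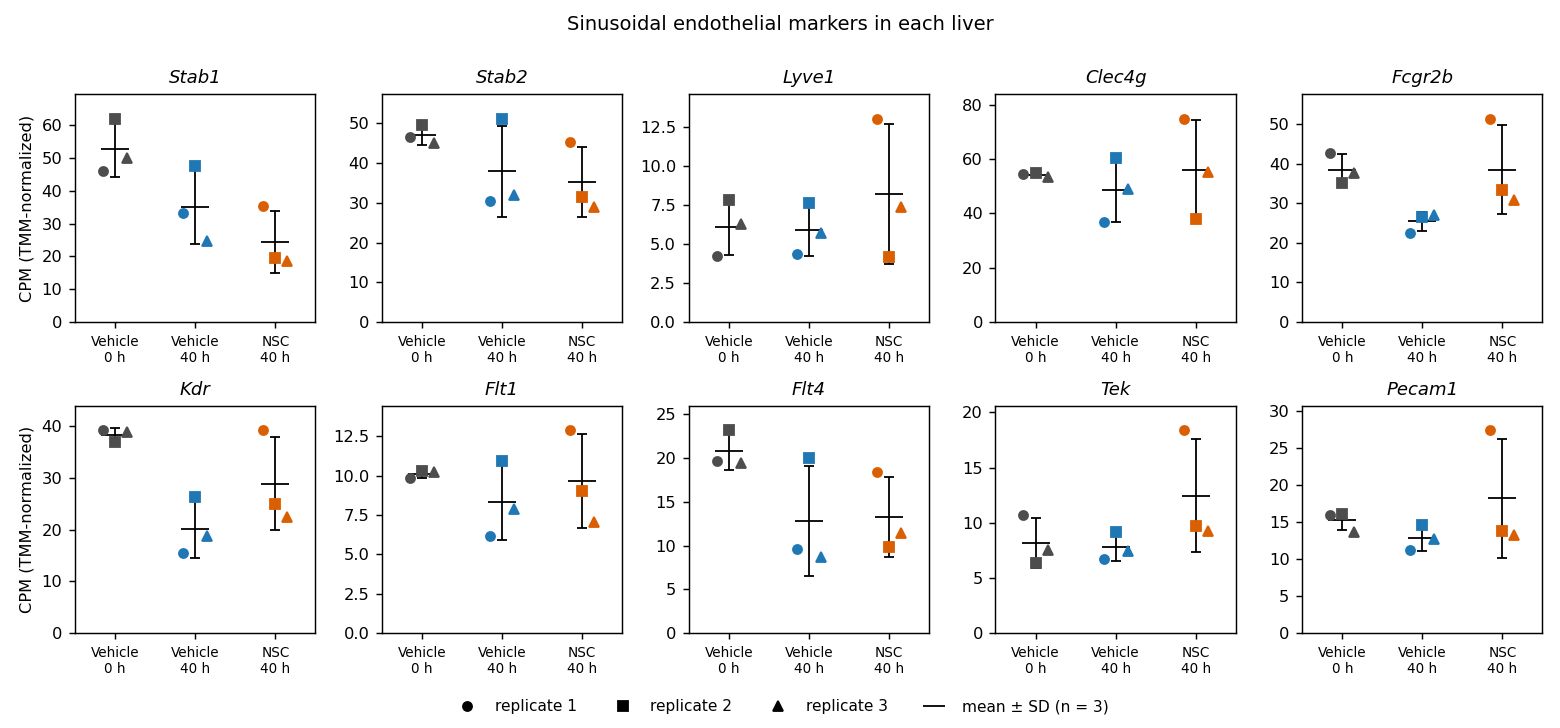
CPM of each marker (y axis, from 0, scale differing by panel) in the 9 livers, by group on the x axis, with symbols for the replicate and the mean ± SD of 3 libraries. Kdr and Fcgr2b in the vehicle 40 h livers, and Stab1 in the NSC livers, lie below all 3 baseline livers, and replicate 1 is the highest NSC liver in every panel.

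The first question was how the markers stood 40 hours after hepatectomy in mice given vehicle. All 10 were lower than at baseline by their estimate, with a median log2 difference of -0.29 against 0.013 over all genes tested, but only 2 of the 10 fell, Kdr and Fcgr2b, where 11.0% of all genes fell. Neither reached a log2 difference beyond 1.5 in size, as 7.22% of all genes did. No marker rose, where 12.7% of all genes did, and none lay above the baseline livers without overlap, where 24.2% of all genes did.

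Kdr encodes VEGF receptor 2, the main signalling receptor for VEGF-A in endothelium. It measured 39.2, 36.8 and 38.8 CPM in the 3 baseline livers and 15.4, 26.3 and 18.8 CPM in the vehicle livers at 40 hours. The groups were apart, with the highest vehicle 40 h liver still below the lowest baseline liver, as was seen for 2 of the 10 markers and 22.0% of all genes. Kdr fell to 0.527 of its baseline level, a log2 difference of -0.92 (SE 0.23, edgeR adjusted p = 0.0134). The call was lost when vehicle 40 h replicate 1 was left out (-0.76, adjusted p = 0.0570) or replicate 3 (-0.87, adjusted p = 0.0589), and it held in the other 17 of 19 settings.

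Fcgr2b measured 42.7, 35.0 and 37.6 CPM at baseline and 22.6, 26.5 and 27.1 CPM in the vehicle livers. These groups did not overlap either. Fcgr2b fell to 0.661 of baseline (log2 difference -0.60, SE 0.19, adjusted p = 0.0394), and it passed in 14 of 19 settings, with estimates of -0.66 to -0.52 whichever library was left out. The call was lost without baseline replicate 1 (adjusted p = 0.131) or 3 (0.0898), and without vehicle 40 h replicate 1 (0.142), 2 (0.0762) or 3 (0.0775). Fcgr2b is also made by macrophages and other immune cells. The 10 Kupffer cell and macrophage markers summed to 202 to 280 CPM at baseline and 191 to 346 CPM in the vehicle livers. Of these 10, 2 rose (Marco and Cd68), where 12.7% of all genes did, none fell and none was at 0. The part of these cells in the Fcgr2b result was not tested. Fcgr2b also resembles other Fc receptor genes in sequence, so reads could have been split between them.

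The other VEGF receptors did not pass. Flt4, VEGF receptor 3, which binds VEGF-C and VEGF-D, measured 19.7, 23.2 and 19.4 CPM at baseline and 9.66, 20.0 and 8.67 CPM in the vehicle livers. Replicates 1 and 3 of the vehicle livers were below the baseline livers, and replicate 2 was within the baseline range. The log2 difference was -0.70 (SE 0.32, adjusted p = 0.144), and -1.18 (adjusted p = 0.0117) without vehicle 40 h replicate 2, where 8.45% of all genes fell. Flt1, VEGF receptor 1, ran from 9.82 to 10.3 CPM at baseline and from 6.16 to 10.9 CPM in the vehicle livers (log2 difference -0.28, SE 0.25, adjusted p = 0.448).

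Kdr was also set against Flt1 within each liver. The log2 ratio of Kdr to Flt1 counts was 2.00, 1.84 and 1.93 at baseline and 1.32, 1.27 and 1.25 in the vehicle livers, so the ratio was lower in all 3 than in any baseline liver. In the NSC livers it was 1.60, 1.47 and 1.68, between the other groups and overlapping neither. The ratio of Kdr to Flt4 overlapped among the groups, at 0.89 ± 0.19, 0.73 ± 0.36 and 1.14 ± 0.19 on the log2 scale (SD, n = 3) in vehicle 0 h, vehicle 40 h and NSC 40 h livers. These ratios were not tested, and the share of gene ratios without overlap was not computed.

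The scavenger receptors of the set did not pass in vehicle-treated mice. Stab1 and Stab2 encode stabilin-1 and stabilin-2, large receptors that remove waste molecules from the blood, and stabilin-2 is the main clearance receptor for hyaluronan. Stab1 measured 46.0, 61.9 and 49.8 CPM at baseline and 33.1, 47.4 and 24.8 CPM in the vehicle livers (log2 difference -0.58, SE 0.29, adjusted p = 0.167), and replicate 2 of the vehicle livers overlapped the baseline. Stab2 measured 46.5, 49.7 and 45.0 CPM at baseline and 30.6, 51.2 and 32.1 CPM in the vehicle livers (log2 difference -0.31, SE 0.22, adjusted p = 0.329). Vehicle replicate 2 stood above the baseline livers and the others below them.

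Lyve1, a hyaluronan receptor of sinusoidal and lymphatic endothelium, had the lowest mean CPM of the set in each group. It ran from 4.23 to 7.82 CPM at baseline and from 4.35 to 7.64 CPM in the vehicle livers, with a log2 difference of -0.05 and a 95% confidence interval of -0.90 to 0.81, wide enough to hold changes in either direction. Clec4g ran from 53.5 to 54.8 CPM at baseline and from 36.8 to 60.3 CPM in the vehicle livers (-0.16, interval -0.66 to 0.35). Pecam1, the CD31 adhesion molecule of endothelial junctions, ran from 13.7 to 16.1 CPM and from 11.2 to 14.6 CPM (-0.25, interval -0.80 to 0.30). Tek, the TIE2 receptor for angiopoietins, ran from 6.32 to 10.7 CPM and from 6.76 to 9.20 CPM (-0.07, interval -0.69 to 0.55). For these 4 the vehicle 40 h and baseline livers overlapped.

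The second comparison set NSC-treated mice at 40 hours against the vehicle baseline. Here the estimates split evenly, 5 lower and 5 higher, with a median log2 difference of -0.03 against 0.013 over all genes, and 1 of 10 markers fell, Stab1, where 16.5% of all genes fell. No marker rose, where 18.2% of all genes did, none lay above the baseline livers without overlap, where 24.0% of all genes did, and none passed with a log2 difference beyond 1.5 in size, as 8.13% of all genes did.

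Stab1 measured 35.4, 19.6 and 18.5 CPM in the NSC livers, against 46.0 CPM in the lowest baseline liver. All 3 lay below the baseline range, and replicates 2 and 3 lay below every other library of the series. Stab1 fell to 0.467 of baseline (log2 difference -1.10, SE 0.29, adjusted p = 0.0141). The call was lost without NSC replicate 2 (-0.96, adjusted p = 0.0553) or replicate 3 (-0.93, adjusted p = 0.0508), and also after a correction for base composition (-0.75, adjusted p = 0.0674). G and C make up 57.3% of the longest Stab1 transcript, against a median of 49.7% over the genes tested. The Stab1 locus overlaps Nt5dc2, which held 2638 reads over the 9 libraries beside 11043 for Stab1, so some reads there could belong to either gene.

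Stab2, the close relative of Stab1, did not pass in the same livers. It measured 45.4, 31.4 and 28.9 CPM (log2 difference from baseline -0.42, SE 0.22, adjusted p = 0.157), and NSC replicate 1 overlapped the baseline. The log2 ratio of Stab1 to Stab2 counts was -0.02, 0.32 and 0.15 at baseline, 0.11, -0.11 and -0.37 in the vehicle livers and -0.36, -0.68 and -0.64 in the NSC livers. The NSC livers were below all baseline livers, and vehicle replicate 3 overlapped them. This ratio too was not tested, and the share of gene ratios without overlap was not computed. Stab1 is also made by some macrophages. The 10 macrophage markers summed to 351 to 573 CPM in the NSC livers, against 202 to 280 CPM at baseline. Of these 10, 5 rose, where 18.2% of all genes did, and none fell. The part of macrophages in the Stab1 result was not tested.

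Kdr and Fcgr2b, the genes that fell in vehicle-treated mice, did not pass against baseline in NSC-treated mice. Kdr measured 39.1, 24.9 and 22.5 CPM, with replicate 1 at the baseline level and the others within the range of the vehicle livers at 40 hours (log2 difference -0.41, SE 0.23, adjusted p = 0.187). Fcgr2b measured 51.3, 33.2 and 30.8 CPM, on both sides of the baseline values (0.00, 95% confidence interval -0.41 to 0.41). Flt4 measured 18.4, 9.81 and 11.5 CPM, and all 3 NSC livers lay below the baseline livers, as was seen for 2 of the 10 markers and 23.1% of all genes, but it did not pass (-0.65, SE 0.32, adjusted p = 0.144). It passed with vehicle 40 h replicate 2 out of the fit (-0.65, SE 0.22, adjusted p = 0.0458), where 15.5% of all genes fell. Flt1 ran from 7.04 to 12.9 CPM (-0.06, interval -0.60 to 0.48).

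Tek had the highest estimate of the set in NSC-treated mice. It measured 10.7, 6.32 and 7.52 CPM at baseline and 18.4, 9.75 and 9.24 CPM in the NSC livers, which overlapped (log2 difference 0.61, SE 0.28, adjusted p = 0.116). Lyve1 ran from 4.18 to 13.0 CPM in the NSC livers (0.43, interval -0.42 to 1.27), Pecam1 from 13.3 to 27.4 CPM (0.26, interval -0.29 to 0.81) and Clec4g from 38.1 to 74.9 CPM (0.05, interval -0.46 to 0.55). Each of these ranges overlapped the baseline values, and in each the upper end was replicate 1.

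**Figure D2:**
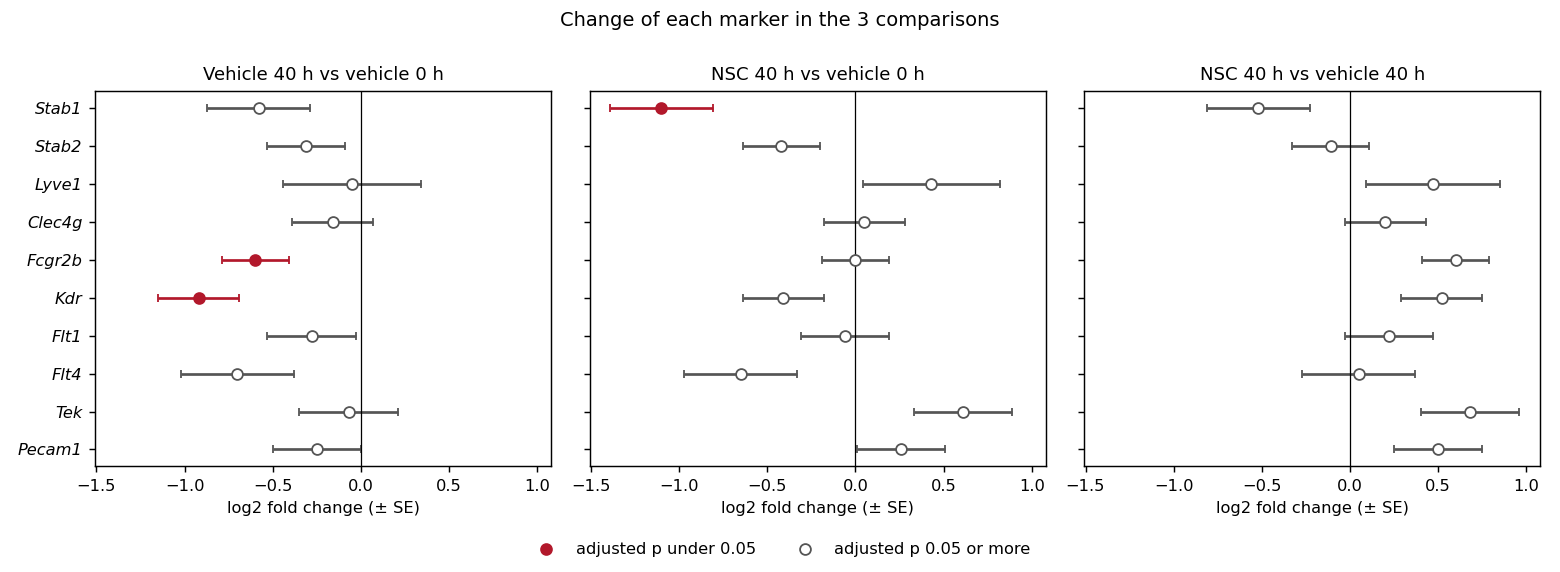
Log2 fold change (x axis) of each marker (y axis) with its standard error in the 3 comparisons, each of 3 against 3 livers, filled red where the edgeR adjusted p was under 0.05. Kdr and Fcgr2b pass in vehicle-treated mice (-0.92 and -0.60), Stab1 passes in NSC-treated mice (-1.10), and none passes between the 2 groups at 40 h.

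The third comparison, NSC against vehicle at 40 hours, asked directly whether the markers differed between the treatments. None of the 10 passed by edgeR or by DESeq2. By edgeR 0.0399% of all genes passed (0.0200% with a log2 difference beyond 1.5 in size). By DESeq2 6.12% passed of the 12395 genes to which it gave an adjusted p. At an unadjusted p under 0.05, 3 of the 10 passed by edgeR (Fcgr2b, Kdr and Tek) and 3 by DESeq2, where 19.5% of all genes did by edgeR and 20.0% by DESeq2. Of the estimates, 8 were higher and 2 lower in NSC-treated mice, with a median of 0.34 against 0.015 over all genes.

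Fcgr2b was 0.60 higher on the log2 scale (SE 0.19, adjusted p = 0.137), and the 3 NSC livers, at 30.8 CPM or more, lay above the 3 vehicle livers, at 27.1 CPM or less. Tek was 0.68 higher (SE 0.28, adjusted p = 0.223), and its groups too were apart, by the small step from 9.20 to 9.24 CPM. Groups without overlap in that direction were seen for 2 of 10 markers and for 10.3% of all genes, and in the lower direction for none of the markers and 12.2% of all genes. Kdr was 0.52 higher (SE 0.23, adjusted p = 0.244) and Pecam1 0.50 higher (SE 0.25, adjusted p = 0.291). Stab1 was 0.52 lower (SE 0.29, adjusted p = 0.339), with an estimate of -0.15 after GC correction, -0.24 without vehicle 40 h replicate 2 and -0.89 (adjusted p = 0.0518) without NSC replicate 1. The intervals for Stab2 (-0.58 to 0.36), Clec4g (-0.30 to 0.71), Flt1 (-0.32 to 0.76), Flt4 (-0.67 to 0.77) and Lyve1 (-0.38 to 1.32) all held 0 and left room for differences of either sign. The Fcgr2b call in vehicle-treated mice and its absence in NSC-treated mice are therefore not shown to differ, and the same holds for Kdr and for Stab1.

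The estimates in NSC-treated mice rested in large part on 1 liver. NSC replicate 1 was the highest NSC library for 10 of 10 markers, while it was the highest for 37.0% of all genes. Its summed level of the 10 markers was 336 CPM, the highest of all 9 libraries, and the other NSC livers were at 194 and 204 CPM. Without it, 4 markers fell against baseline: Stab1 (-1.46), Stab2 (-0.64, adjusted p = 0.0284), Kdr (-0.69, adjusted p = 0.0172) and Flt4 (-0.96, adjusted p = 0.0462), all in the edgeR fit, where 15.9% of all genes fell. The median difference of the markers from baseline was then -0.30, and that between NSC and vehicle at 40 hours was -0.05 in place of 0.34. In that last comparison the estimates without it were 0.33 for Fcgr2b, 0.23 for Kdr, 0.28 for Tek and 0.077 for Pecam1.

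In the same liver all 10 macrophage markers, 13 of 15 further sinusoidal genes, 13 of 20 pan-endothelial genes and 11 of 11 large vessel genes were the highest of the NSC group, and 1 of 8 hepatocyte markers was. Vehicle 40 h replicate 2 was the highest vehicle library at 40 hours for 9 of 10 markers, against 36.2% of all genes. It was also the highest for 8 of 10 macrophage markers, 12 of 15 further sinusoidal genes, 17 of 20 pan-endothelial genes and 8 of 8 hepatocyte markers, but for 1 of 11 large vessel genes. Without it the median difference of the markers from baseline in vehicle-treated mice was -0.55. The 10 markers summed to 282 to 302 CPM in the baseline livers, a narrow range, and to 177 to 274 CPM in the vehicle and 194 to 336 CPM in the NSC livers. The summed level thus varied less among the baseline livers than among those of either 40 h group.

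**Figure D3:**
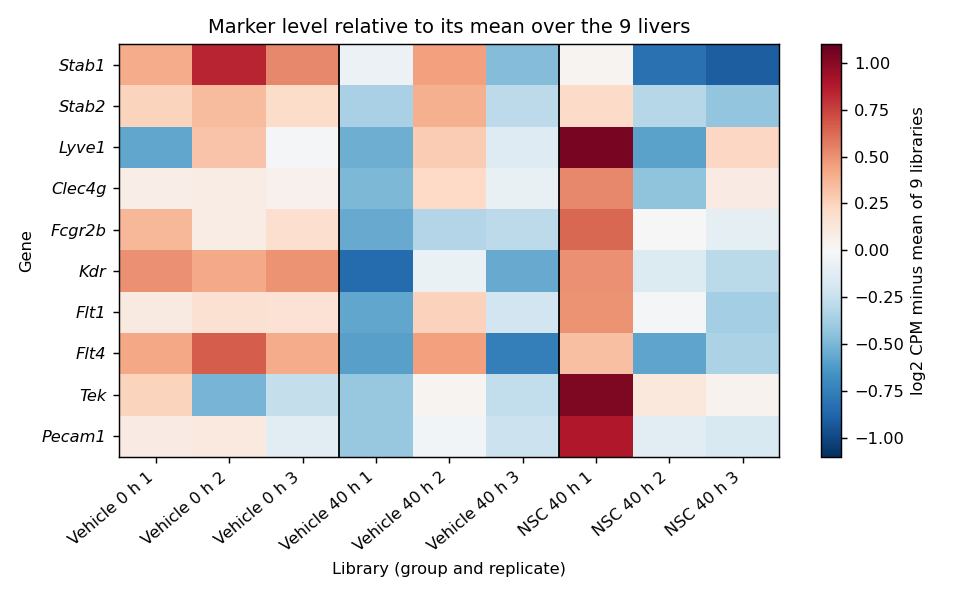
Log2 CPM of each marker (rows) in each library (columns) minus its mean over the 9 libraries, red above and blue below that mean, with lines between the groups. The columns of NSC replicate 1 and vehicle 40 h replicate 2 are redder than those of the other livers in their group, and Stab1 is blue in NSC replicates 2 and 3.

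The markers moved together across libraries, in so far as 9 libraries of 3 groups can show it. Pearson's r of log2 CPM had a median of 0.64 over the 45 pairs, and 44 pairs were above 0. The closest pair was Stab2 and Flt4 (r = 0.95), and the only pair below 0 was Stab1 and Tek (r = -0.17). Flt1 followed the mean of the other 9 most closely (r = 0.91), and Stab1 and Tek least (r = 0.51 each). These are descriptions, since the libraries of a group share their treatment.

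Among all other genes tested, Ehd3 had the pattern most like the mean of the 10 markers (Pearson's r = 0.963 over 9 libraries, each marker scaled to unit variance). Ptprb, the endothelial phosphatase that acts on TIE2, was next (r = 0.924). The following genes were Igha, Pcdh12, Agtrap, Gpr116, Irgm2, F730311O21Rik, Ldb2 and Gimap8, with r from 0.891 to 0.918. Ehd3 and Ptprb stood in the lists of endothelial genes used here, and Igha is an immunoglobulin heavy chain of plasma cells.

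To see which markers moved apart from the endothelium as a whole, each was set against the mean log2 CPM of 20 pan-endothelial genes in the same liver. This mean itself differed, at 3.08 to 3.21 at baseline, 2.47 to 2.97 in the vehicle and 2.51 to 3.17 in the NSC livers. A relative value can therefore rise because the reference fell. Kdr was at 2.17, 2.13 and 2.07 at baseline and at 1.48, 1.75 and 1.64 in the vehicle livers on this scale, a difference of -0.50 without overlap, whereas Fcgr2b differed by -0.14 with overlap. Stab1 was at 2.40, 2.88 and 2.43 at baseline and 1.97, 1.79 and 1.29 in the NSC livers, a difference of -0.88 without overlap, and its NSC values were also below the vehicle livers at 40 hours (2.04 or more). Stab2 overlapped in every comparison.

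Tek was higher relative to the pan-endothelial genes in the NSC livers, at 1.03, 0.78 and 0.30 against 0.30, -0.40 and -0.29 at baseline, though NSC replicate 3 met the highest baseline liver to within rounding. Clec4g was higher than baseline on this scale in both 40 h groups, by 0.27 and 0.26, without overlap. In CPM its log2 differences from baseline were -0.16 and 0.05, with overlap. Flt4 was lower in the NSC livers by 0.43. The remaining relative values, those of Lyve1, Flt1 and Pecam1, overlapped in every comparison. No test was made on this scale, and the share of all genes without overlap on it was not computed.

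**Figure D4:**
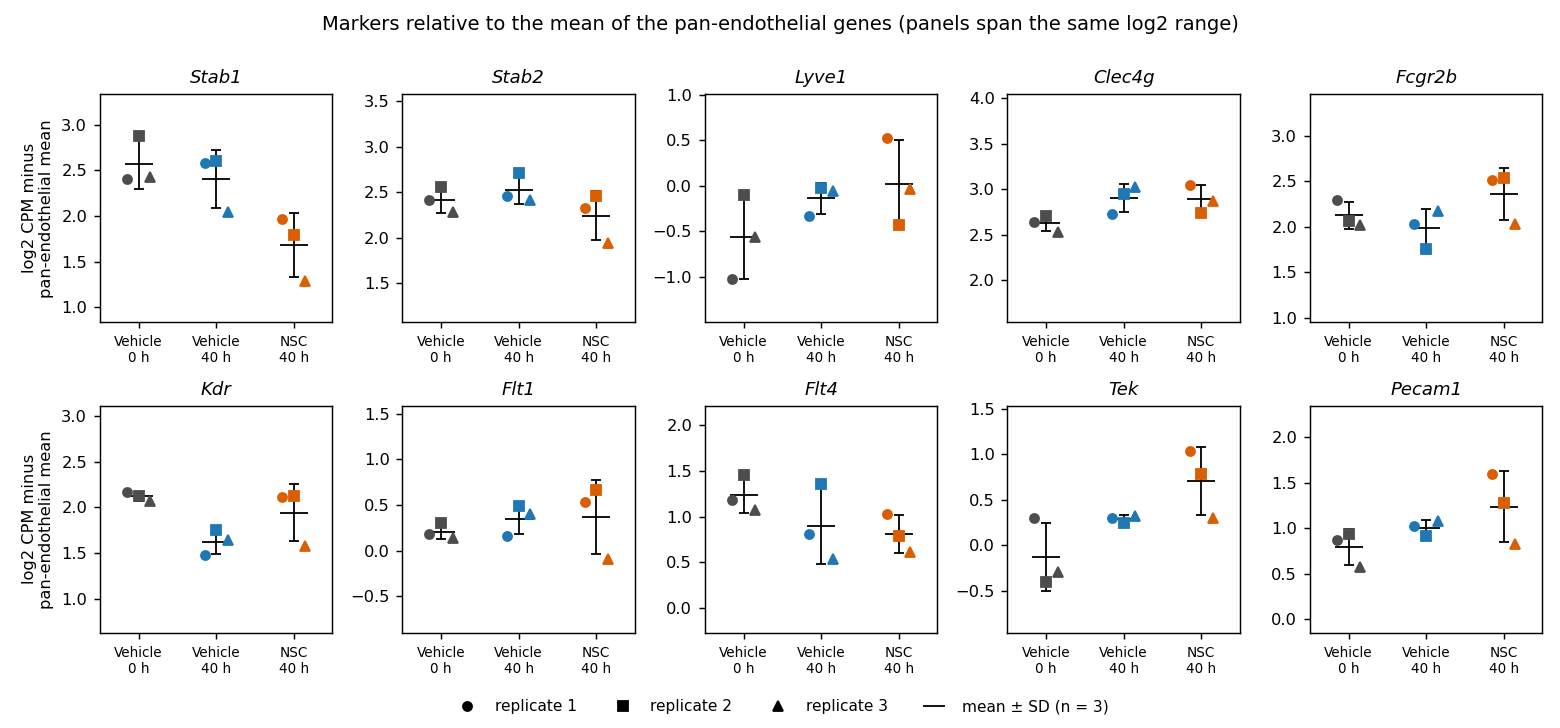
Log2 CPM of each marker minus the mean log2 CPM of 20 pan-endothelial genes (y axis) in the 9 livers, by group on the x axis, with symbols for the replicate and the mean ± SD of 3 libraries. Kdr is lower in the vehicle 40 h livers (-0.50) and Stab1 in the NSC livers (-0.88), and the spread among NSC livers remains for several markers.

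The ligands and partners of the receptors in the set were then examined, 10 of which could be tested. Vegfa, the main ligand of Kdr and Flt1, which hepatocytes make, fell in both comparisons with baseline, by 0.85 in vehicle-treated mice (SE 0.16, adjusted p = 0.00304) and by 1.37 in NSC-treated mice (SE 0.16, adjusted p = 0.000146) on the log2 scale. Vegfb, a ligand of Flt1, also fell in both, by 1.13 and 1.43. Nrp1, the co-receptor neuropilin-1, rose by 0.68 and 1.04 (adjusted p = 0.0244 and 0.00200). Ptprb fell in vehicle-treated mice (-0.83, adjusted p = 0.0393) and was at -0.20 in NSC-treated mice without passing.

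None of the 10 passed between NSC and vehicle. The estimates for Vegfc, a ligand of Flt4, were 0.41 and 0.51 (adjusted p = 0.271 and 0.140), and those for Angpt1, the activating ligand of Tek, were -1.07 and 0.01 (adjusted p = 0.118 and 0.993). Angpt1 and Angpt2 were both low, at 0.930 CPM or less in every liver. Angpt2, the context-dependent ligand of Tek, was at -1.24 and -0.73, and Tie1, the sister receptor of Tek, at -0.26 and -0.29. Neither passed. Nrp2 was at -0.26 and 0.26 without passing, and the gene for VEGF-D, listed as Figf, at -0.44 and -0.50.
The log2 ratio of Tek to Tie1 counts was -0.60 ± 0.47 at baseline, -0.34 ± 0.30 in the vehicle livers and 0.34 ± 0.30 in the NSC livers (SD, n = 3). The NSC livers, at 0.04 to 0.65, were above all livers of the other groups. The step was small, since vehicle 40 h replicate 3 was at 0.00. This ratio was not tested, and the share of gene ratios without overlap was not computed.

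Of 15 further genes of sinusoidal endothelium tested, 5 fell in vehicle-treated mice, where 11.0% of all genes did. None rose, where 12.7% of all genes did, and the median difference over the list was -0.42. Bmp6, the endothelial signal that drives hepcidin in hepatocytes, fell by 1.65 in vehicle-treated mice (adjusted p = 0.000814) and by 1.00 in NSC-treated mice (adjusted p = 0.00723). Oit3 fell in both (-0.97 and -0.75, adjusted p = 0.00935 and 0.0228). Dnase1l3, a secreted nuclease, fell in vehicle-treated mice (-0.86, adjusted p = 0.0130) and was at -0.34 in NSC-treated mice without passing, and Mrc1, the mannose receptor, and Ntn4 also fell in vehicle-treated mice.

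In NSC-treated mice 2 of these 15 rose, where 18.2% of all genes did. They were Plxnc1 (1.08, adjusted p = 0.0132) and Wnt9b, an endothelial Wnt ligand (1.44, adjusted p = 0.0262). In vehicle-treated mice Plxnc1 was at 0.57 and Wnt9b at 0.98 without passing. For both genes NSC replicate 1 was highest, at 44.2 and 5.70 CPM. NSC replicates 2 and 3 lay within the range of the vehicle livers at 40 hours. Bmp6 and Oit3 were the 2 that fell, where 16.5% of all genes did, and the median was 0.11. Estimates that did not pass were 0.04 and 0.70 for Wnt2, 0.29 and 0.81 for Rspo3, -0.42 and -0.13 for Gpr182 and 0.15 and 0.11 for Gata4, the vehicle value first. Between NSC and vehicle at 40 hours 14 of the 15 estimates were higher and none passed, with a median of 0.51 against 0.015 over all genes. NSC replicate 1 was the highest NSC liver for 13 of the 15. The list summed to 332 CPM in that liver and to 192 and 206 CPM in NSC replicates 2 and 3.

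Among 20 pan-endothelial genes, 5 fell in vehicle-treated mice, where 11.0% of all genes did, and none rose, where 12.7% did (median -0.33). Cldn5, a tight junction protein, fell by 1.46 and 1.44 in vehicle-treated and NSC-treated mice, Gpihbp1, which carries lipoprotein lipase across capillaries, by 1.20 and 1.30, and Ushbp1 by 1.18 and 1.29, on the log2 scale. Robo4 fell in both and Clec14a in vehicle-treated mice. In NSC-treated mice 4 fell, where 16.5% of all genes did, and 1 rose, where 18.2% did. The gene that rose was Calcrl, the receptor for adrenomedullin (1.16, adjusted p = 0.00257). Cdh5, VE-cadherin, was at -0.36 and 0.25 and Eng, endoglin, at -0.12 and -0.57, and neither passed.

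Of 11 genes of large vessels and continuous endothelium tested, 2 rose in vehicle-treated mice, where 12.7% of all genes did, and none fell. The estimates were higher for 7 and lower for 4, with a median of 0.16. Cd34 rose by 1.58 (adjusted p = 0.00959) and Plvap, of fenestral diaphragms, by 0.84 (adjusted p = 0.00661), and in NSC-treated mice Cd34 was at 0.99 (adjusted p = 0.0557) and Plvap at 0.24 without passing. Vwf, von Willebrand factor, was at 0.43 and -0.31. Esm1 was the 1 gene of this list that fell in NSC-treated mice (-2.86, adjusted p = 0.0193), where 16.5% of all genes did. It lay near the floor, at 0.316, 1.22 and 1.42 CPM at baseline and 0.300, 0 and 0.0783 CPM in the NSC livers. Of 4 genes listed as lymphatic, Pdpn rose in both (3.70 and 2.82, SE 0.64 each). Pdpn lay near the floor at baseline, at 0.253, 0.183 and 0.33 CPM, so the size of its rise is uncertain. It measured 3.68, 2.54 and 3.84 CPM in the vehicle livers and 3.57, 1.36 and 0.47 CPM in the NSC livers. The other 3 did not pass, with lower estimates for all 3 in vehicle-treated mice (-1.39 to -0.08) and for 2 in NSC-treated mice. Prox1 held most of the summed level of this list, at 64.3 to 106 CPM beside sums of 66.1 to 111 CPM. Which cells made these transcripts was not tested.

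**Figure D5:**
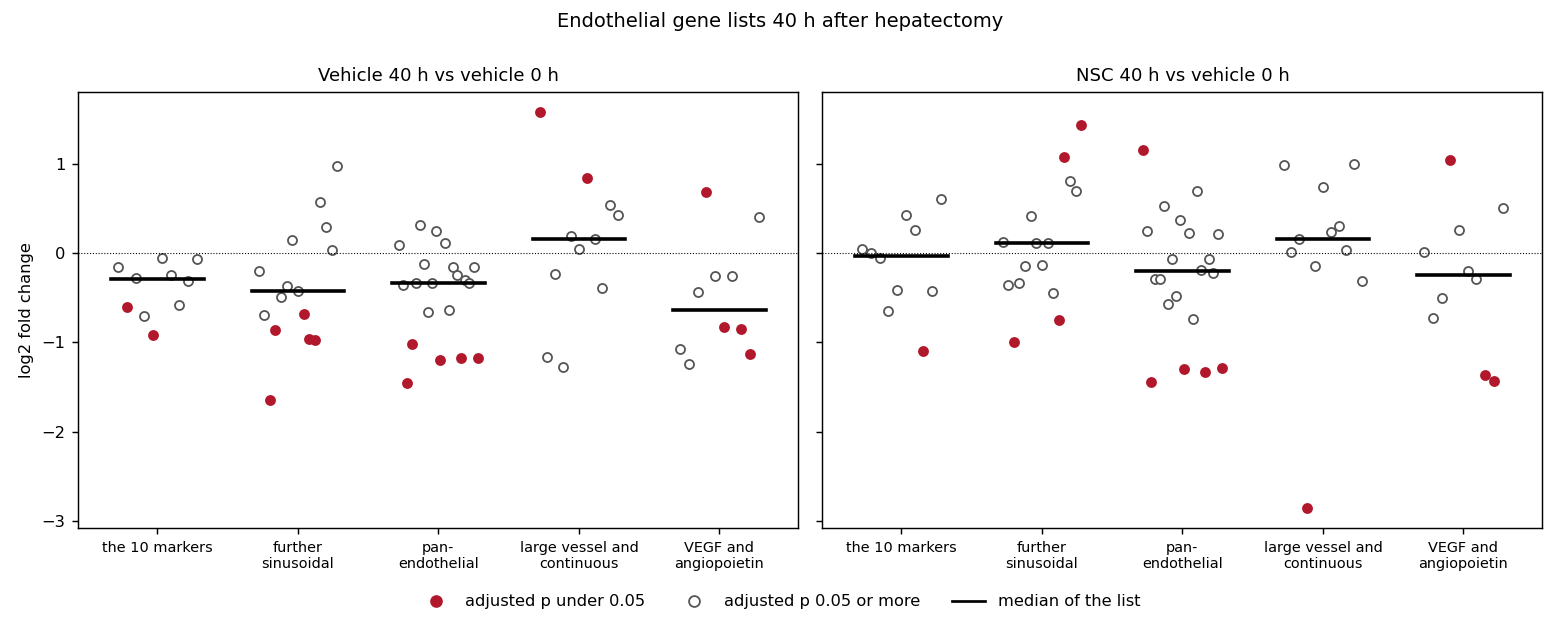
Log2 fold change from baseline (y axis) of each tested gene of 5 endothelial gene lists (x axis) in vehicle-treated and NSC-treated mice, filled red where the edgeR adjusted p was under 0.05, with a bar at the median of the list. The median of the 10 markers is -0.29 and -0.03, that of further sinusoidal genes -0.42 and 0.11, and that of pan-endothelial genes -0.33 and -0.20.

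Of 12 genes of endothelial signalling and flow, 2 rose in vehicle-treated mice, where 12.7% of all genes did, and 4 in NSC-treated mice, where 18.2% did. Thbd (2.37 and 2.64) and Id3 (1.44 and 1.19) rose in both comparisons with baseline, and Id1 (2.08) and Ednrb (1.33) rose in NSC-treated mice. With vehicle Id1 was at 0.93 and Ednrb at 0.87 without passing. Dll4, a Notch ligand of endothelium, was the 1 gene that fell, in both (-1.33 and -1.58), where 11.0% and 16.5% of all genes did. The flow-related genes Klf2 (-0.03 and -0.06), Klf4 (-0.18 and 0.60) and Nos3 (0.41 and 0.03) did not pass. Which cells made these transcripts was not tested.

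Markers of the other cells of the liver were counted beside these results. Over all genes tested, 12.7% rose and 11.0% fell in vehicle-treated mice, and 18.2% rose and 16.5% fell in NSC-treated mice. Of 10 Kupffer cell and macrophage markers, 2 rose with vehicle and 5 with NSC, none fell, the medians were 0.05 and 1.04, and 9 of 10 estimates were higher in NSC-treated than in vehicle-treated mice without any that passed. The genes that rose in NSC-treated mice were Cd5l, Marco, Vsig4, Timd4 and Cd68. Of 8 stellate cell markers, 3 rose in vehicle-treated mice, Hgf, Pdgfrb and Des, and their sum ran from 210 to 247 CPM at baseline, 277 to 318 CPM in the vehicle and 235 to 366 CPM in the NSC livers. In NSC-treated mice Hgf and Dcn rose and Colec11 fell. Of 8 hepatocyte markers, Tat fell in both comparisons and Cps1 and Asgr1 in NSC-treated mice, and the sum was 116000 to 122000 CPM at baseline, 91400 to 129000 CPM in the vehicle and 94300 to 113000 CPM in the NSC livers. Of 4 platelet markers, Gp1bb rose in vehicle-treated mice and Itga2b fell in NSC-treated mice. The part of these shifts in the marker results was not tested.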

How the data were processed

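Whole-liver RNA was sequenced as stranded mRNA libraries. Per the labels and the study's methods, the authors aligned reads with STAR 2.6.1 and obtained gene counts with featureCounts of Subread 1.5.1. They name the human build hg38, whereas the deposited gene identifiers and coordinates are those of the mouse on GRCm38. The deposited raw count per gene was tested here, and the FPKM that the authors deposited beside it was used only to order levels between genes. It was recovered from the counts and gene lengths to within a relative difference of 4.96e-10 for values above 1. The deposited columns of gene length were used for that purpose alone.

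Counts were filtered by expression with edgeR 4.0.16 (R 4.3.3), scaled by TMM and fitted for all 9 libraries with the robust quasi-likelihood test, with Benjamini-Hochberg adjustment over 15024 genes and a threshold of 0.05. A second rule also asked for a log2 difference beyond 1.5 in size. In simulated vehicle libraries, the fit found 0 of 200 genes with a 1.5-fold change, 80 of 200 with a 2-fold change and 173 of 200 with a 4-fold change. Unchanged genes that passed numbered 0, 7 and 14. Only 200 of 14757 to 14837 genes were changed there, whereas 23.7% passed in the vehicle comparison of the data. The adjustment depends on that share, so these counts do not give the sensitivity in the data. Libraries held 23997363 to 42887589 reads, and no pair of replicates was a duplicate. Alternatives were another scaling or filter, DESeq2 1.42.0, fits without robust estimation, of the 2 groups alone, with the replicate number as a block or without each library, and a correction for GC content chosen after the data were seen. Promoters were read from RefSeq windows on GRCm38.p6.

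The 10 markers and all gene lists were chosen with earlier results of these data known, and the lists are described by counts and medians without a test of the list. Named were all markers, a set of VEGF, angiopoietin and endothelial genes, up to 3 rising and 3 falling genes with the smallest adjusted p in each list (others of a list were named after their values were seen), and the 10 genes most like the mean of the markers. One marker list of another cell type is not reported here.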

Additional observations from a re-analysis of the deposited data

How the results depend on the processing

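Counts of genes that passed, of the 10 markers first. In vehicle-treated mice against baseline 2 markers passed, 0 when a log2 difference beyond 1.5 was also required, and 0 to 2 when 1 library was left out (1 without vehicle 0 h replicate 1 or 3, 0 without vehicle 40 h replicate 1 or 3, and Kdr and Flt4 in place of Kdr and Fcgr2b without vehicle 40 h replicate 2). In NSC-treated mice against baseline 1 passed, 0 with that requirement, 0 after GC correction, and 0 to 4 with 1 library left out (4 without NSC replicate 1, 2 without vehicle 40 h replicate 2, 0 without NSC replicate 2 or 3). Between NSC and vehicle none passed under any alternative run. Of all genes, 1085, 1222 and 3 passed the fold requirement in the 3 comparisons, and 2285 to 4538, 3604 to 5234 and 0 to 994 passed with 1 library left out (994 without NSC replicate 1, 111 without vehicle 40 h replicate 3, 0 without vehicle 40 h replicate 2, NSC replicate 2 or NSC replicate 3). NSC against vehicle, where 6 passed, gave 1 with library size scaling, 221 over all genes with at least 1 count and 11 with the replicate block. It gave 0 without robust estimation and 0 after GC correction. By DESeq2 758 passed, of the 12395 genes given an adjusted p. The cause was not tested.

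Deviations from the group means of same-numbered libraries correlated at -0.048 to 0.081 between the 2 vehicle groups, and at up to 0.134 between NSC and vehicle at 40 h. With 3 libraries per group these values cannot tell whether same-numbered samples shared a mouse. The replicate block left the markers that passed at 2, 1 and 0. Library size scaling put the median of all genes at 0.154 and 0.142 in the NSC comparisons with baseline and vehicle, from 0.013 and 0.015, and gave 3399 genes that rose and 1795 that fell in the first, and GC correction put it at -0.091 in vehicle-treated mice, from 0.013, and gave 1680 that rose and 2516 that fell in vehicle-treated and 1908 and 2664 in NSC-treated mice, against 1914 and 1650, and 2728 and 2479. GC content was known for 99.2% of genes.

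Estimates of markers changed sign 27 times in 540 repeats, none with an adjusted p under 0.05. Fcgr2b in NSC-treated mice against baseline was -0.002 with RLE scaling and by DESeq2, -0.016 with the replicate block and -0.32 after GC correction. Flt1 there was 0.084 with library size scaling, and Stab2 in NSC against vehicle was 0.046 with that scaling and 0.022 after GC correction. With 1 library left out, the log2 differences ran from -0.28 to 0.18 for Lyve1, -0.34 to 0.015 for Clec4g and -0.22 to 0.17 for Tek in vehicle-treated mice against baseline. In NSC-treated mice against baseline they ran from -0.083 to 0.74 for Lyve1, -0.22 to 0.26 for Clec4g, -0.26 to 0.14 for Fcgr2b, -0.33 to 0.12 for Flt1 and -0.17 to 0.44 for Pecam1. Between NSC and vehicle they ran from -0.34 to 0.17 for Stab2, -0.041 to 0.79 for Lyve1, -0.068 to 0.42 for Clec4g, -0.055 to 0.46 for Flt1 and -0.27 to 0.53 for Flt4. Lyve1, the marker with the fewest reads by mean CPM, had the largest SE (0.39).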
